A study of Mus musculus with 8 samples.

Results

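The miR-148/miR-152 family comprises 3 microRNA (miRNA) hairpins of the mouse genome, miR-148a, miR-148b and miR-152. Its 6 mature products (mmu-miR-148a-3p and mmu-miR-148a-5p, mmu-miR-148b-3p and mmu-miR-148b-5p, mmu-miR-152-3p and mmu-miR-152-5p, written without the species prefix from here on) were taken by name from a table of 1915 mature miRNAs, and all 6 were found there. They were followed in mouse embryonic stem cells through 8 small RNA libraries made from total RNA. Wild type E14 cells (strain background 129/Ola) gave libraries A and B. Cells with an Ago2 knockout gave 2 libraries, one from each of lines 1 and 2. The other 2 groups came from an Ago2 knockout line with inducible ectopic AGO1, either uninduced (libraries A and B) or induced with doxycycline at 1 µg/mL (libraries A and B). All 4 AGO1 libraries therefore lack Ago2 as well, and their source names give a single line named after knockout line 1. Per the labels' protocols, all cells grew on gelatine with 15% serum and 100 U/mL of the self-renewal factor LIF, with puromycin at 2 µg/mL for the AGO1 line. Nothing in the labels tells whether libraries A and B of a group came from separate cultures, so p-values measure only the spread between these libraries, which may be technical.

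A miRNA is cut from a hairpin as a short duplex, and one strand, the guide, is retained by an Argonaute protein (AGO1 to AGO4 in mammals), which then represses mRNAs that match bases 2 to 8 of the guide, its seed. AGO2 is the member of this protein family best known for slicing its targets. The miR-148/miR-152 family is known for repressing Dnmt1, the maintenance DNA methyltransferase, and miR-148a is best known from liver and B cells.

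The 3p arms are printed first because they share 1 seed and are nearly alike over their whole length. All 6 mature sequences matched RefSeq entries on build GRCm38.p6. They are given 5′ to 3′ with the seed in capitals.
miR-148a-3p: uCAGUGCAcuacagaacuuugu
miR-148b-3p: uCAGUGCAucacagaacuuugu
miR-152-3p: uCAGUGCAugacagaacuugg
No other of the 1679 mature mouse miRNAs in that reference has this seed. Counted from 1 at the 5′ end of miR-148a-3p, miR-148b-3p differs from it by C9U and U10C, and miR-152-3p by C9U, U10G and U20G. miR-152-3p is also 1 base shorter. How reads with mismatches or several matches were assigned is not given in the sources used here, so a few reads of the abundant miR-148a-3p counted as miR-148b-3p or miR-152-3p could not be recognised in these counts.

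The 5p arms are shown because the balance between arms differed between groups.
miR-148a-5p: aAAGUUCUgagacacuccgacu
miR-148b-5p: gAAGUUCUguuauacacucaggcu
miR-152-5p: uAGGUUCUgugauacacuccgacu
miR-148a-5p and miR-148b-5p share a seed that no other mature entry has, and the seed of miR-152-5p occurs in that entry alone. All 3 3p arms begin with U, whereas the 5p arms begin with A, G and U.

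The hairpins are given next with both arms in capitals, the 5p arm first, to show which strands compete.
Mir148a: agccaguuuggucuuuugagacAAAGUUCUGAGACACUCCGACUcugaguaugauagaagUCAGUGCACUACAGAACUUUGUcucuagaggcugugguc
Mir148b: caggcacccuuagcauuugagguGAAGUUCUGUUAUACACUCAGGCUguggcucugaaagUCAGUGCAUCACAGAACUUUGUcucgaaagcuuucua
Mir152: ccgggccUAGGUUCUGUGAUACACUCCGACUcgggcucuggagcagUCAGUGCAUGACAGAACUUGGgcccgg
On GRCm38, the build named mm10 in the submitters' processing notes, Mir148a lies at chr6:51269812-51269910 on the minus strand, where GENCODE vM21 has no other gene. Mir148b lies at chr15:103285125-103285221 on the plus strand, inside an intron of all 4 overlapping transcripts of Copz1. Mir152 lies at chr11:96850393-96850465 on the plus strand, inside an intron of all 3 overlapping transcripts of Copz2. Both hosts are on the same strand as their miRNA and encode zeta subunits of the COPI vesicle coat.

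Library totals ranged from 163467 counts in knockout 2 to 1326638 in the induced line A, and the 3 shallowest libraries were both knockout libraries and the uninduced line B. Levels are given in CPM (counts divided by library size and scaled to a common total, with library sizes adjusted by edgeR's TMM factors). A count of 0 was read as up to 3 counts, 2.57 to 15.1 CPM by library, which covers counting error only. The 24 listed markers of embryonic stem cells (miR-290 to miR-295 cluster, miR-302 and miR-367) held 25.4 to 30.8% of counts in each library, and miR-367-5p alone had none. Counts were found for 3 of 5 blood markers (miR-223-3p and miR-451a had none), with summed levels of 1837 to 1883 CPM in wild type, 5709 to 6395 in the knockout, 6216 to 6723 in the uninduced and 3713 to 3874 in the induced line. Of 6 fibroblast markers 5 had counts (miR-214-3p had none), with 4269 to 4983, 1586 to 1679, 1579 to 1656 and 2643 to 2893 CPM in the same order. Of 4 liver and endoderm markers 2 had counts, and the liver-defining miR-122 had none on either arm. Their summed level was 1896 to 1966 CPM in wild type and 2362 to 2653 CPM over the other 6 libraries. Of the 4 neural markers, all with counts, the sum was 1508 to 1875 CPM in wild type and 749 to 1112 over the other 6. Muscle markers were represented by miR-133a-3p alone of 3, at 6.62 CPM or less. The depth and several of these marker sums differed between some of the groups compared below, and their part in the results was not tested. No measure of Ago2 mRNA or AGO protein was analysed here, and genotypes are as labelled.

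miR-148a-3p was by far the most abundant member. It ranked between 21st and 27th of all miRNAs in each library by count and made up 79.0 to 89.7% of the family's counts. In order of replicate (A then B, or 1 then 2, here and below), wild type had 12566 and 12637 CPM, the knockout 9852 and 8958, the uninduced line 7902 and 8553 and the induced line 6946 and 7240.2. All 6 libraries without Ago2 were below both wild type libraries, and the induced line was lowest. In the order of levels, wild type stood above the knockout, the knockout above the uninduced line and the uninduced above the induced line. The last 2 steps did not pass the test (log2 fold change -0.19 ± 0.15, edgeR adjusted p = 0.538, and -0.21 ± 0.15, edgeR adjusted p = 0.305).

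miR-148b-3p showed the clearest change among the members. Wild type had 572 and 608 CPM, the knockout 97.2 and 146, the uninduced line 168 and 185 and the induced line 309 and 388. The 4 groups did not overlap: the knockout was lowest, the uninduced line next, the induced line above it and wild type highest. As raw counts these are 481 and 675, 39 and 29, 126 and 56, and 361 and 389 in the same order. The uninduced line and the knockout are the neighbours in this order that did not differ by the test (0.57 ± 0.28, edgeR adjusted p = 0.366).

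miR-152-3p was close to the limit of detection. It had 13 and 18 counts in wild type (15.4 and 16.2 CPM), 0 and 1 in the knockout, 2 and 0 in the uninduced line and 3 and 3 after induction. Only the wild type libraries reached the abundance that the filter for testing asked for, so the member entered the test through the group in which it was high. Its difference from wild type was therefore built in, and it is described by its counts and left out of the counts of members called. Counts in the 3 groups without Ago2 are too few to order them.

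Among the 5p arms, miR-148a-5p stood at 815 and 714 CPM in wild type, 932 and 1012 in the knockout, 1129 and 725 in the uninduced and 1057 and 963 in the induced line. The uninduced libraries alone spanned nearly the whole range, and no pair of groups differed by the edgeR test with all 8 libraries. miR-148b-5p stood at 303 and 213 CPM in wild type, 94.7 and 156 in the knockout, 245 and 179 in the uninduced and 444 and 379 in the induced line. The induced line was highest and the knockout lowest, while the uninduced line overlapped wild type. miR-152-5p stood at 36.8 and 48.6 CPM in wild type, 12.5 and 15.1 in the knockout, 17.3 and 3.31 in the uninduced and 36.0 and 24.9 in the induced line. These rest on 31 and 54, 5 and 3, 13 and 1, and 42 and 25 counts in the same order. Both knockout and both uninduced libraries were below the other 4, but only by small counts.

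**Figure D1:**
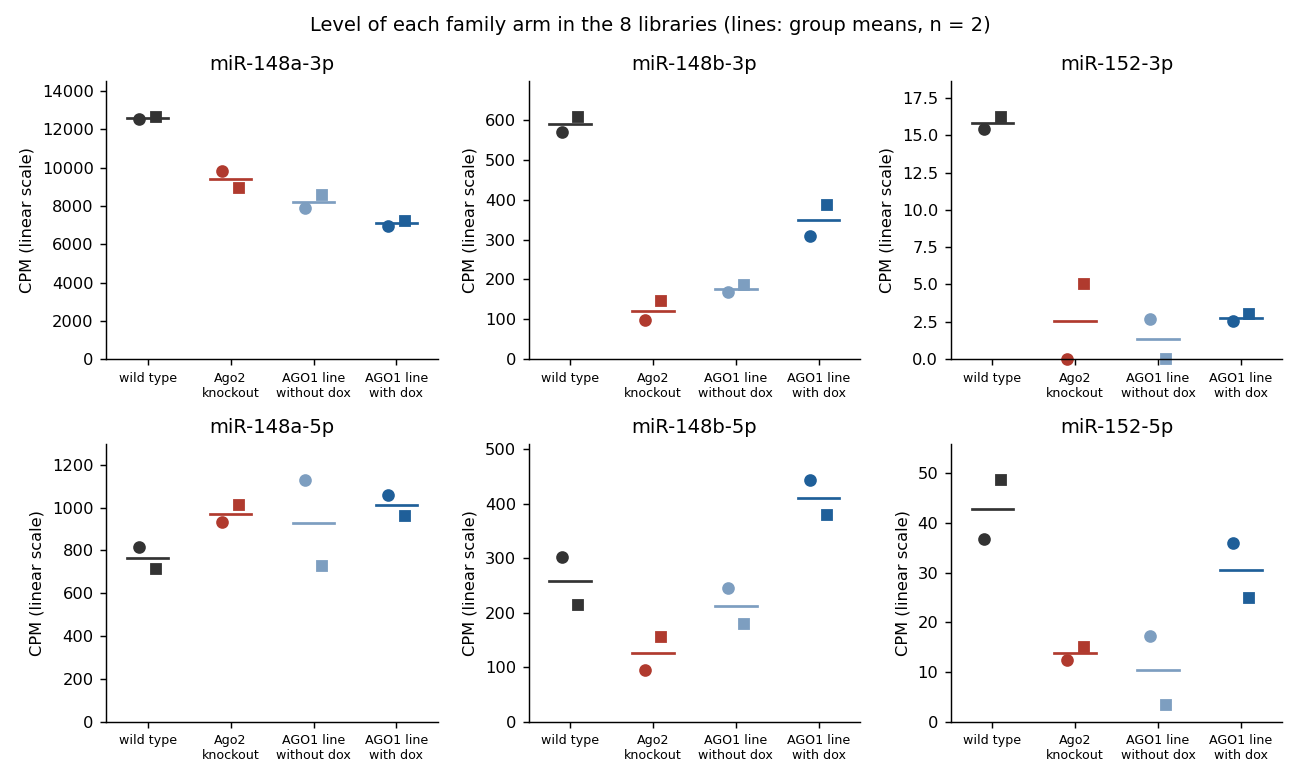
Each panel plots 1 arm, with CPM on a linear vertical axis that starts at 0 and the 4 groups on the horizontal axis. Circles are library A or knockout 1, squares library B or knockout 2, and lines are group means (n = 2). miR-148a-3p falls from 12601 CPM in wild type to 7093 in the induced line, while miR-148b-3p is lowest in the knockout (122 CPM) and reaches 349 CPM in the induced line.

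Loss of Ago2 was examined by comparing the knockout with wild type. miR-148b-3p fell from 590 ± 25.6 to 122 ± 34.5 CPM (SD, n = 2 each). This is 4.97-fold, or -2.31 ± 0.27 as a log2 fold change with its SE (edgeR adjusted p = 8.75e-05). Its call held in all 16 alternatives, with values between -2.56 and -2.01. miR-148a-3p fell by 0.42 on the log2 scale (SE 0.15, edgeR adjusted p = 0.0341), miR-148b-5p by 1.08 (SE 0.32, edgeR adjusted p = 0.0170) and miR-152-5p by 1.67 (SE 0.60, edgeR adjusted p = 0.0344). miR-152-3p had 31 counts in wild type and 1 in the knockout, a ratio of 9.53 after division by TMM-adjusted library sizes. That difference was built in by the filter. For miR-148a-5p the value was 0.35 ± 0.23 (edgeR adjusted p = 0.215).

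Of the 5 members other than miR-152-3p, 4 passed the test as lower and 0 as higher. Over all 475 miRNAs tested, 32.2% were called lower and 25.5% higher. The median log2 fold change was -1.08 over these 5 members and -0.13 over all miRNAs tested. The calls other than that of miR-148b-3p depended on single libraries. That of miR-148a-3p was lost with any of the 8 libraries left out (edgeR adjusted p 0.0625 to 0.316). The call of miR-148b-5p ended without wild type A (0.213), knockout 1 (0.0744) or the induced line A (0.0539) or B (0.0633). Without wild type A or B, knockout 1, or the induced line A or B, the call of miR-152-5p was lost (0.0811, 0.126, 0.123, 0.0701 and 0.0746). Without TMM factors the median over all miRNAs moved from -0.13 to 0.16, and only miR-148b-3p was called lower, with miR-148a-5p called higher (0.66, edgeR adjusted p = 0.0275) and miR-148a-3p at -0.12 (edgeR adjusted p = 0.456). Relative to the respective median, miR-148a-3p was at -0.30 with and -0.28 without these factors.

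The AGO1 line before induction was compared with both knockout lines and with wild type. Only the AGO1 line grew with puromycin, so the drug and the transgenic line cannot be told apart in either comparison. Against the knockout, 0 of 6 members (miR-152-3p included) passed the edgeR test, as did 0% of all 475 miRNAs in either direction. At an unadjusted p under 0.05 there were 72 of the 475, and DESeq2 called 15 miRNAs but 0 members. In edgeR 1 member, miR-148b-5p, had an unadjusted p under 0.05 (0.81 ± 0.33, edgeR adjusted p = 0.275). With knockout 2 left out, so that knockout 1 is the only reference, miR-148b-5p was called higher in the uninduced line (1.16, edgeR adjusted p = 0.0153). There the lone knockout library was assumed to vary like the other groups. Without the 2 shallowest libraries, knockout 2 and the uninduced line B, 1 library stood against 1, with the spread taken from the other groups, and the value was 1.34 (edgeR adjusted p = 0.00718).

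Against wild type, miR-148b-3p was lower in the uninduced line by 1.74 (log2 fold change -1.74 ± 0.25, edgeR adjusted p = 0.000256), a call that held in all 18 alternatives. miR-148a-3p fell by 0.62 on the log2 scale (SE 0.15, edgeR adjusted p = 0.00553) and miR-152-5p by 1.75 (SE 0.52, edgeR adjusted p = 0.0154). miR-152-3p had 31 counts in wild type against 2, a difference again built in by the filter. On the same scaled basis the ratio was 8.36 (95% exact binomial interval 2.13 to 72.1). So 3 of the 5 members other than miR-152-3p were lower and 0 higher, where 33.3% of all miRNAs tested were lower and 25.9% higher. miR-148a-5p was called higher without the uninduced line B (0.77, edgeR adjusted p = 0.0398) and without the 2 shallowest libraries, which leaves 1 uninduced library (0.72, edgeR adjusted p = 0.00428), against 0.28 ± 0.23 with all libraries (edgeR adjusted p = 0.294). Leaving out 1 library ended the call of miR-148a-3p without wild type A (edgeR adjusted p = 0.0642), the uninduced line A (0.0600) or B (0.148) or the induced line A (0.0507). It ended that of miR-152-5p without wild type B (0.0761) or the uninduced line B (0.114). This comparison shares its wild type libraries with the knockout comparison, so the values of both are not independent.

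Both arms of miR-148b were higher after AGO1 induction. With doxycycline miR-148b-3p rose from 177 ± 12.3 to 349 ± 55.8 CPM (0.99 ± 0.25, edgeR adjusted p = 0.0159) and miR-148b-5p from 212 ± 47.0 to 411 ± 45.6 CPM (0.94 ± 0.30, edgeR adjusted p = 0.0388; SD, n = 2 each). These are rises of 1.98-fold and 1.92-fold. miR-152-5p was at 1.26 ± 0.53 (edgeR adjusted p = 0.104), miR-148a-5p at 0.12 ± 0.23 (edgeR adjusted p = 0.735) and miR-148a-3p at -0.21 ± 0.15 (edgeR adjusted p = 0.305). miR-152-5p was called higher without knockout 1 (1.27, edgeR adjusted p = 0.0328) or knockout 2 (1.26, edgeR adjusted p = 0.0327). miR-152-3p had 6 counts in the induced and 2 in the uninduced line. Of the 5 members other than miR-152-3p, 2 were higher and 0 lower, against 21.1% higher and 7.58% lower over all miRNAs tested. The call of miR-148b-3p was lost without the uninduced line A (edgeR adjusted p = 0.0906) or B (0.107) or the induced line B (0.147). That of miR-148b-5p was lost without the uninduced line A (0.0562) or B (0.294) or the induced line A (0.187) or B (0.122). Without TMM factors miR-148b-5p was not called (0.74, edgeR adjusted p = 0.0799), and miR-148a-3p was called lower (-0.42, edgeR adjusted p = 0.0392), while the median of all miRNAs moved from 0.03 to -0.17. The labels give no doxycycline-treated library without the AGO1 transgene, so the drug and AGO1 cannot be told apart.

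The induced line was also set against the knockout. These groups differ in the AGO1 transgene, doxycycline and puromycin, and the knockout also includes line 2. These factors cannot be told apart here. miR-148b-3p was higher by 1.55 ± 0.27 (edgeR adjusted p = 0.00169) and miR-148b-5p by 1.75 ± 0.32 (edgeR adjusted p = 0.00262), which is 2.93-fold and 3.38-fold. Both calls held in all 16 alternatives, including each library left out (edgeR adjusted p at most 0.0303 and 0.0167). Here too 2 of these 5 members were higher and 0 lower, where 19.2% of all miRNAs tested were higher and 10.7% lower. miR-148a-3p stood at -0.41 ± 0.15 (edgeR adjusted p = 0.0624) and was called lower by DESeq2 (adjusted p = 0.00562), with DESeq2 size factors (edgeR adjusted p = 0.0194), without TMM factors (0.00205) and without the 2 shallowest libraries (0.0323).

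**Figure D2:**
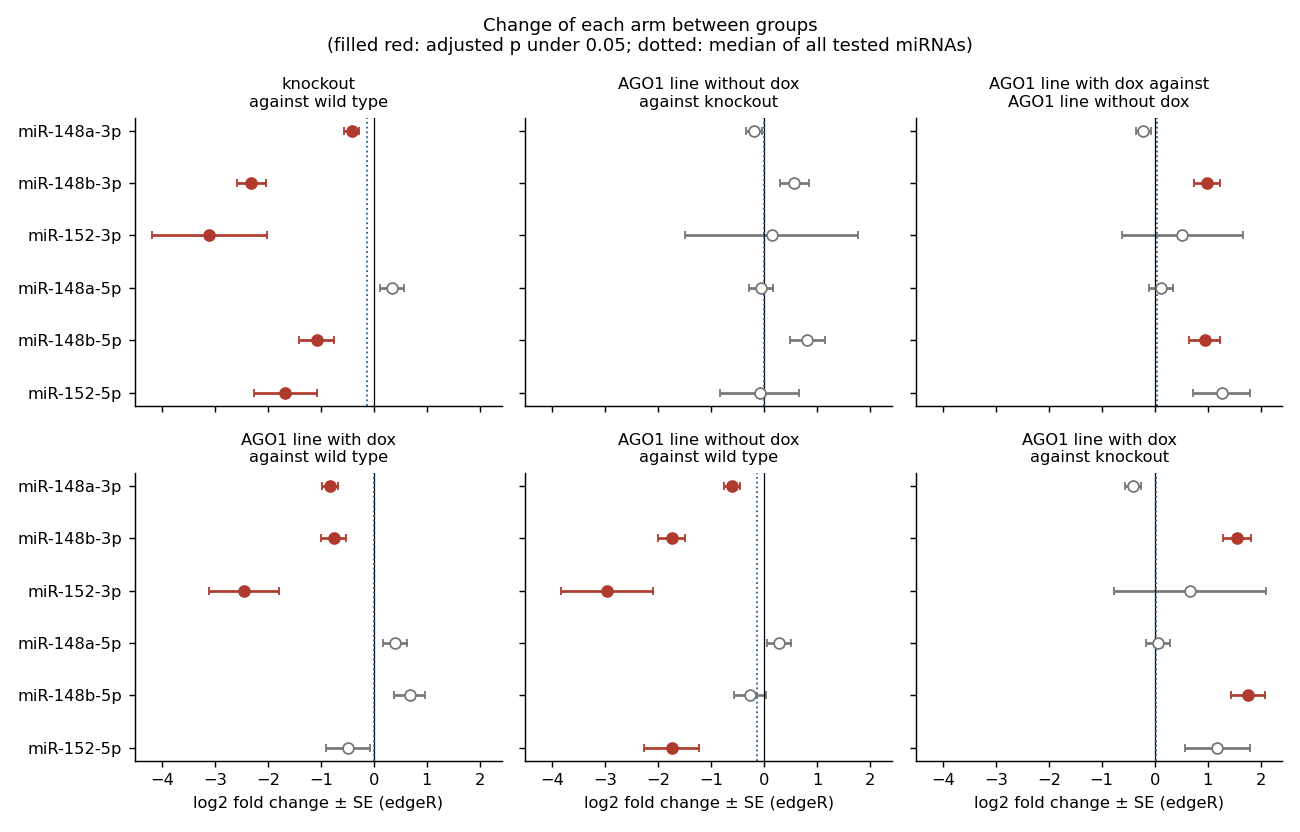
Each panel is 1 comparison, with the log2 fold change from edgeR on the horizontal axis and the 6 arms on the vertical axis. Bars are the SE, filled red points have an adjusted p under 0.05, and the dotted line is the median of all miRNAs tested. miR-148b-3p lies at -2.31 in the knockout and -1.74 in the uninduced line against wild type, and at 1.55 in the induced line against the knockout, while miR-148a-5p has no filled point and the filled points of miR-152-3p follow from the filter.

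miR-148a-3p and miR-148b-3p were still lower in the induced line than in wild type. These groups differ in Ago2, the AGO1 transgene, doxycycline and puromycin, which cannot be told apart here. miR-148a-3p remained at 7093 ± 208 CPM in the induced line against 12601 ± 50.8 in wild type (-0.83 ± 0.15, edgeR adjusted p = 0.00251). miR-148b-3p was lower by 0.76 on that scale (log2 fold change -0.76 ± 0.24, edgeR adjusted p = 0.0307). miR-152-3p had 31 counts in wild type against 6, a difference likewise built in by the filter. The scaled ratio was 5.74 (95% exact binomial interval 2.36 to 16.8). On the 5p side, miR-148b-5p was at 0.67 ± 0.29 (edgeR adjusted p = 0.0908), miR-148a-5p at 0.40 ± 0.23 (edgeR adjusted p = 0.175) and miR-152-5p at -0.49 ± 0.41 (edgeR adjusted p = 0.364). Of the 5 members other than miR-152-3p, 2 were lower and 0 higher, where 19.8% of all miRNAs tested were lower and 19.2% higher. Leaving out the induced line A or B ended the call of miR-148a-3p (edgeR adjusted p = 0.0915 and 0.0594). The call of miR-148b-3p ended without either library of wild type (0.183 and 0.125), of the uninduced (0.0627 and 0.0607) or of the induced line (0.420 and 0.146), A and B in turn. miR-148b-5p was called higher without knockout 1 (0.71, edgeR adjusted p = 0.00457), without knockout 2 (0.70, edgeR adjusted p = 0.00439) and with only these 2 groups in the fit (0.76, edgeR adjusted p = 0.00501). With only these 2 groups in the fit, miR-148a-5p was called higher as well (0.47, edgeR adjusted p = 0.0180). It was also called without knockout 1 (0.44) and without the 2 shallowest libraries (0.59), fits that leave 1 knockout library.

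The balance between the arms of a hairpin does not depend on how libraries are scaled, since both arms are counted in the same library. For miR-148a the 3p arm held 93.9 and 94.7% of the hairpin's counts in wild type, 91.4 and 89.8% in the knockout, 87.5 and 92.2% in the uninduced and 86.8 and 88.3% in the induced line. Each of the 6 libraries without Ago2 had a smaller 3p share than either wild type library. For miR-148b the 3p share was 65.4 and 74.0% in wild type, 50.6 and 48.3% in the knockout, 40.6 and 50.9% in the uninduced and 41.1 and 50.6% in the induced line. The 3p arm led in both wild type libraries, and its share was between 40.6 and 50.9% in the 6 libraries without Ago2. The knockout shares of miR-148b rest on few counts, with 95% exact binomial intervals of 39.0 to 62.2% and 35.2 to 61.6%. For miR-152 the 5p arm had more counts in every library. The 3p share was 29.5 and 25.0% in wild type and 6.67 and 10.7% in the induced line. The uninduced line had 2 and 0 counts of the 3p arm against 13 and 1 of the 5p arm. In each knockout library both arms together had 5 counts or fewer. Counts in the knockout and in the uninduced line B are too few to say which arm led.

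**Figure D3:**
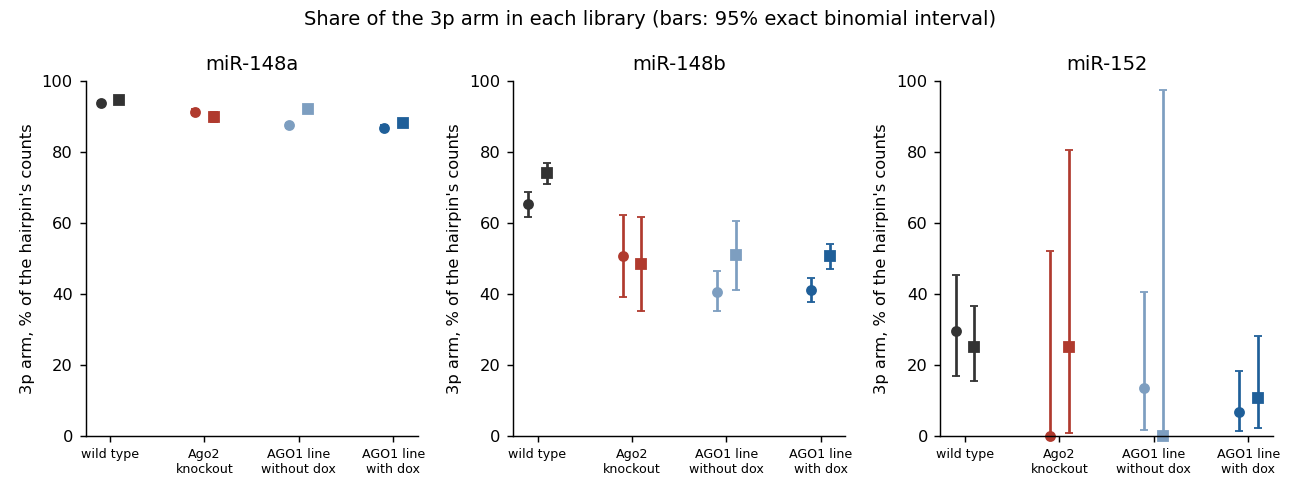
Each panel is 1 hairpin, with the 3p arm's percentage of the hairpin's counts on a vertical axis from 0 to 100 and the 4 groups on the horizontal axis. Points are libraries and bars 95% exact binomial intervals, which cover counting error only. For miR-148b both wild type libraries (65.4 and 74.0%) lie above the 6 others, and the intervals of miR-152 are wide outside wild type and the induced line.

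The ratio of 5p to 3p was tested across 135 hairpins with both arms measured, by edgeR with each library as a term. In the knockout against wild type it rose by 0.77 ± 0.26 on the log2 scale for miR-148a (edgeR adjusted p = 0.0309) and by 1.24 ± 0.37 for miR-148b (edgeR adjusted p = 0.0144). For miR-152 it was 1.44 ± 1.28 (edgeR adjusted p = 0.371). So 2 of 3 hairpins rose, where 20% of all 135 hairpins rose and 20.7% fell. In the uninduced line against wild type miR-148a was at 0.88 ± 0.26 (edgeR adjusted p = 0.0157) and miR-148b at 1.52 ± 0.31 (edgeR adjusted p = 0.00144), and 23% of all hairpins rose and 25.9% fell. Calls were lost for miR-148a in the knockout without wild type B (edgeR adjusted p = 0.110), knockout 2 (0.146) or the induced line A (0.0601) or B (0.0629), and in the uninduced line without wild type B (0.0640) or the uninduced line A (0.232). For miR-148b they were lost in the knockout without wild type B (0.0957) and in the uninduced line without the uninduced line A (0.0658).

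In the induced line against wild type the ratio rose by 1.23 ± 0.26 for miR-148a (edgeR adjusted p = 0.00158) and by 1.46 ± 0.28 for miR-148b (edgeR adjusted p = 0.00107). For miR-152, whose 3p arm was tested only through wild type, the value was 1.96 ± 0.64 (edgeR adjusted p = 0.0238) and supports nothing on its own. Of all hairpins 22.2% rose and 23.7% fell in this comparison. The calls of miR-148a and miR-148b held in all 11 alternatives. For the miR-152 ratio the p rose above the threshold with no abundance filter (edgeR adjusted p = 0.197) and with a mean of at least 20 CPM (0.0665). The miR-152 call was also lost without wild type A, the uninduced line A or B or the induced line A or B. Over all alternatives its values ranged from 1.56 to 2.29. Between the induced and the uninduced line the ratio of miR-148b, whose arms both rose, was at -0.06 ± 0.31 (edgeR adjusted p = 0.926) and that of miR-148a at 0.35 ± 0.26 (edgeR adjusted p = 0.404). Of the 3 family hairpins 0 were called there by edgeR, where 2.22% of all hairpins were called as rising and 3.7% as falling. Of the 3, 0 had an unadjusted p under 0.05, a threshold for which the share of all hairpins is not given. Between the induced line and the knockout the values were 0.46 ± 0.26 for miR-148a (edgeR adjusted p = 0.267) and 0.22 ± 0.37 for miR-148b (edgeR adjusted p = 0.766), where 5.19% of all hairpins rose and 7.41% fell. Between the uninduced line and the knockout they were 0.11 ± 0.27 (edgeR adjusted p = 0.966) and 0.28 ± 0.39 (edgeR adjusted p = 0.966), where 0.741% fell and 0% rose.

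Because the 3p arms share 1 seed, their shares of the family's 3p counts were compared. These are shares of counts from total RNA, and binding to Argonaute proteins was not measured. miR-148b-3p made up 4.35 and 4.58% of the family's 3p counts in wild type, 0.977 and 1.60% in the knockout, 2.08 and 2.12% in the uninduced and 4.26 and 5.08% in the induced line. The induced line overlapped wild type, and both knockout libraries were lowest. Put as a ratio, there were 21.4 ± 0.84 counts of miR-148a-3p for each of miR-148b-3p in wild type, 81.4 ± 28.3 in the knockout, 46.6 ± 0.65 in the uninduced and 20.6 ± 2.70 in the induced line (SD, n = 2 each). These shares were not tested. The 6 arms together held 1.34 ± 0.11% of all counts in wild type, 1.24 ± 0.02% in the knockout, 0.979 ± 0.02% in the uninduced and 0.791 ± 0.02% in the induced line.

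**Figure D4:**
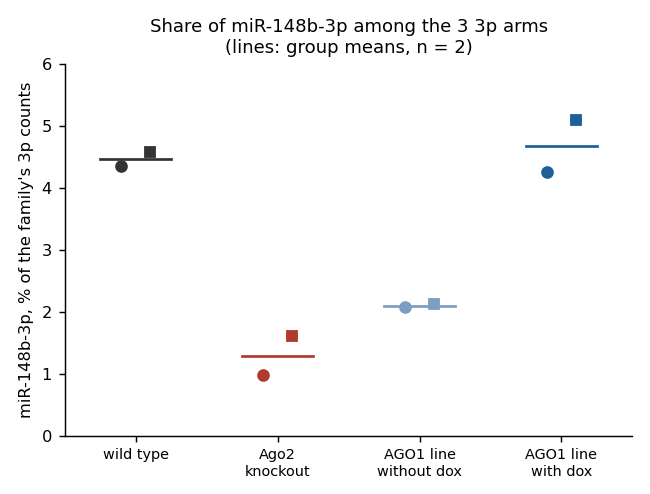
The vertical axis gives miR-148b-3p as a percentage of the summed counts of the family's 3p arms, from 0, and the horizontal axis the 4 groups. Points are libraries and lines are group means (n = 2). The share is 4.35 and 4.58% in wild type, 0.977 and 1.60% in the knockout and 4.26 and 5.08% in the induced line.

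Across the 8 libraries the members varied in different ways. Pearson's r of log2(CPM + 1) was 0.69 between the arms of miR-148b, 0.81 between those of miR-152 and -0.67 between those of miR-148a. Between miR-148a-3p and miR-148b-3p it was 0.38. These describe 8 points that share group, library and depth. The miRNAs outside the family with the most similar pattern among 380 of at least 20 CPM were miR-20b-5p (r = 0.97), miR-101b-3p (0.96) and miR-27a-3p (0.95) for miR-148a-3p. For miR-148b-3p they were miR-186-5p (0.97), miR-99b-5p (0.96) and miR-324-5p (0.96), and for miR-152-3p miR-376a-5p (0.93), miR-151-3p (0.93) and miR-342-3p (0.91). miR-186-5p, for example, went from 3429 ± 180.2 CPM in wild type to 343 ± 27.3 in the knockout, 417 ± 23.9 in the uninduced and 1454 ± 86.9 in the induced line. The miRNAs named were picked as the highest r of the 380, and r was not tested. Outside wild type miR-152-3p had too few counts to order. Its r values, also that with miR-152-5p, therefore rest largely on wild type against the other libraries.

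The miR-130 and miR-301 family carries 6 of the seed's letters, AGUGCA, at positions 2 to 7 of its members in place of 3 to 8, which is why it is set beside the miR-148/miR-152 family here. These letters are in capitals below.
miR-130a-3p: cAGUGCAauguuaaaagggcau
miR-130b-3p: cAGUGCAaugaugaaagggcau
miR-301a-3p: cAGUGCAauaguauugucaaagc
Of 1679 mature entries 7 have AGUGCA at positions 2 to 7. miR-301b-3p has no entry in that reference, so its sequence is not printed. Of the 4 listed 3p arms, miR-301b-3p included, 3 were lower in the knockout than in wild type and 0 higher, with a median of -3.24 against -0.13 over all miRNAs tested, of which 32.2% were lower and 25.5% higher. miR-301a-3p fell by 5.74 on the log2 scale (SE 0.23, edgeR adjusted p = 6.98e-08) and miR-130a-3p by 1.06 (SE 0.18, edgeR adjusted p = 0.000954). With induction 3 of 4 were higher than in the uninduced line and 0 lower, with a median of 2.28 against 0.03 over all miRNAs tested, of which 21.1% were higher and 7.58% lower. miR-301a-3p rose by 3.99 ± 0.21 (edgeR adjusted p = 5.55e-07). miR-130a-3p, the most abundant of them, rose from 3212 ± 68.6 to 4785 ± 20.3 CPM (0.58 ± 0.18, edgeR adjusted p = 0.0354). miR-130b-3p was not called in either comparison (-0.38 ± 0.20, edgeR adjusted p = 0.124, in the knockout and -0.13 ± 0.20, edgeR adjusted p = 0.639, with induction), but was called lower in the knockout without knockout 1 (-0.62, edgeR adjusted p = 0.0258). The call of miR-130a-3p with induction was lost without the uninduced line A (edgeR adjusted p = 0.139) or B (0.320) or the induced line A (0.174) or B (0.168). Relative to wild type, 4 of 4 were lower in the uninduced and 3 of 4 in the induced line, with medians of -3.32 and -1.17 (-0.14 and 0.01 over all miRNAs tested, of which 33.3 and 19.8% were lower). The calls of miR-130b-3p there (-0.61 ± 0.20, edgeR adjusted p = 0.0217, and -0.74 ± 0.20, edgeR adjusted p = 0.0148) were lost without wild type A, the uninduced line B or the induced line A or B, and the first of them also without the uninduced line A (edgeR adjusted p 0.101 to 0.254 and 0.0531 to 0.246).

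Other miRNAs known to repress DNA methyltransferases were listed as well: the miR-29 family, miR-101a and miR-101b, miR-143, miR-185, miR-342 and miR-126. Of 9 listed arms in the table, 7 passed the filter. In the knockout 3 were lower than in wild type (miR-101b-3p, miR-143-3p and miR-342-3p) and 0 higher, with a median of -0.34 against -0.13 over all miRNAs tested, of which 32.2% were lower. miR-143-3p, also 1 of the fibroblast markers above, was lower by 3.29 (log2 fold change -3.29 ± 0.20, edgeR adjusted p = 8.05e-07). With induction 2 were higher than in the uninduced line, miR-143-3p (2.78 ± 0.20, edgeR adjusted p = 4.02e-06) and miR-342-3p (from 14.0 to 46.3 CPM on average, edgeR adjusted p = 0.0388), and 0 lower, with a median of -0.17 against 0.03, where 21.1% of all miRNAs tested were higher. Of the 7, miR-101b-3p, miR-143-3p and miR-342-3p were lower than wild type in the uninduced line (33.3% of all miRNAs tested) and miR-101a-3p, miR-101b-3p and miR-143-3p in the induced line (19.8%), with 0 higher in either and medians of -0.27 and -0.72. The call of miR-101a-3p (-0.90 ± 0.22, edgeR adjusted p = 0.00959) ended when wild type A was left out (0.134), and likewise with the induced line A (0.113) or B (0.144). Against wild type in the induced line, the call of miR-143-3p (-0.88 ± 0.18, edgeR adjusted p = 0.00444) was lost without the induced line A (edgeR adjusted p = 0.0801) or B (0.115). miR-342-3p was not called lower in the knockout without wild type A (edgeR adjusted p = 0.0738) or knockout 1 (0.119). With induction it was not called without wild type A (0.0623) or B (0.0581), the uninduced line B (0.225) or the induced line A (0.0835) or B (0.159).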

How the data were processed

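Small RNA was measured in 8 libraries of 4 groups. Per the labels' protocols, the kit was TruSeq small RNA. The deposited table holds the authors' whole-number counts per mature miRNA, not normalized. Bowtie and mm10 are named in the submitters' processing notes. For the aligner's version and settings, trimming and the miRNA annotation, nothing is given in the sources used here. Of 2 header lines the first was used.

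Of 1915 miRNAs, 475 passed edgeR's filterByExpr (99.9% of counts) and were fitted together: edgeR 4.0.16 quasi-likelihood F test (2-sided), R 4.3.3, TMM factors, 4 groups, 4 residual degrees of freedom, Benjamini-Hochberg adjustment over the 475 separately for 6 comparisons. Calls have an adjusted p below 0.05. The test returns no SE; it was derived as the absolute log2 fold change over the square root of F, and is approximate. Arm ratios used both arms of each library as columns, with Benjamini-Hochberg adjustment over 135 hairpins. Both fits were run on simulated counts with known changes, drawn independently for each miRNA. The outcome is not reported here and is not used as support. The replicates of each group differed by more than sampling noise (chi-square per degree of freedom 12.4 to 44.2). DESeq2 1.42.0 was an alternative.

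The members, lists and tests were chosen with earlier results of these data known. Named miRNAs are the 6 members, the 3 most correlated with each 3p arm (mean CPM of at least 20), and of each list the member with the smallest adjusted p and those of at least 1000 CPM; other list members named were chosen after their values were seen.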

Additional observations from a re-analysis of the deposited data

How the results depend on the processing

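The 6 libraries with letters were fitted with a replicate block (A and B), since letters recur across 3 groups. The differences A minus B correlated between groups at 0.0526, -0.00721 and 0.197, so the letters were not taken as pairs. With the replicate block, 2 members were called with against without doxycycline, 4 with doxycycline against wild type and 4 without doxycycline against wild type. The call that the block added, of miR-148b-5p with doxycycline against wild type (0.69, edgeR adjusted p = 0.00439), was also made in these libraries without the block (0.67, edgeR adjusted p = 0.00858), and the block ended 1 call made without it in these libraries, of miR-152-5p with against without doxycycline (1.24, edgeR adjusted p = 0.0456), which all 8 libraries did not give either. The fit of these libraries without the block was chosen after seeing the data, as was the arm ratio without the 2 shallowest libraries. No crossing of letters was called for.

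Counts of members in this section include miR-152-3p, which passed the filter only through wild type, and counts of arm ratios include that of miR-152. They describe only how calls depended on the settings. The share of all miRNAs or hairpins called in each setting is not given here, so the family is not compared with other miRNAs. Members called in knockout against wild type (5, all lower) became 2 without TMM factors (1 of them higher), 3 with the DESeq2 test, 3 with a mean of at least 20 CPM, 1 with only the 2 groups in the fit and 2 with counts thinned to the smallest library, of which miR-148a-5p was higher (0.60, edgeR adjusted p = 0.0498) and miR-148b-3p alone was lower. Those with against without doxycycline (2) became 1 with DESeq2 size factors and 1 when thinned. Those with doxycycline against wild type (3) became 5 with only the 2 groups (2 of them higher), 1 when thinned and 5 without the 2 shallowest libraries (2 higher). Those without doxycycline against wild type (4) became 2 with the DESeq2 test and 2 when thinned, and those without doxycycline against the knockout (0) became 1 without the 2 shallowest libraries, where 1 library stood against 1. Arm ratios called in knockout against wild type (2) became 1 with no abundance filter and 1 without the 2 shallowest libraries. With doxycycline against wild type, the call of the miR-152 ratio was lost with no abundance filter (adjusted p = 0.197) and with a mean of at least 20 CPM (0.0665). Some of these drops include a member that did not pass a setting's filter, so that it was not tested there. miR-152-3p was left out with a mean of at least 20 CPM and when thinned. In knockout against wild type it was also left out with only the 2 groups in the fit. miR-152-5p was left out when thinned. The cause of the other changes was not tested. DESeq2 gave no adjusted p for miR-152-3p in some comparisons.

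With 1 library left out, members called ranged from 1 to 4 in knockout against wild type, 0 to 1 without doxycycline against knockout, 0 to 3 with against without doxycycline, 0 to 5 with doxycycline and 2 to 4 without it against wild type, and 2 to 2 with doxycycline against knockout. Arm ratios called ranged from 0 to 2 in knockout, 2 to 3 with and 0 to 2 without doxycycline against wild type, and 0 to 0 in the other 3 comparisons. A lone library in a group was assumed to vary like the others.

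Signs reversed only for values that were not called. With 1 library left out, log2 fold changes ranged from -0.58 to 0.38 (miR-148a-5p), -3.48 to 3.70 (miR-152-3p) and -2.13 to 0.51 (miR-152-5p) without doxycycline against knockout, from -0.60 to 0.14 (miR-148b-5p) and -0.15 to 0.77 (miR-148a-5p) without doxycycline against wild type, from -0.32 to 0.61 (miR-148a-5p) and -0.10 to 4.10 (miR-152-3p) with against without doxycycline, and from -0.0068 to 0.098 (miR-148a-5p) and -0.80 to 4.23 (miR-152-3p) with doxycycline against knockout. Arm ratios ranged from -0.28 to 0.47 (miR-148a), -0.077 to 0.52 (miR-148b) and -3.64 to 1.34 (miR-152) without doxycycline against knockout, from -0.0059 to 0.75 (miR-148a), -0.33 to 0.30 (miR-148b) and -0.82 to 1.02 (miR-152) with against without doxycycline, and from -0.058 to 0.50 (miR-148b) and -2.95 to 1.85 (miR-152) with doxycycline against knockout. For miR-148a-5p with doxycycline against knockout the value was -0.030 with DESeq2 size factors, -0.34 without TMM factors, -0.028 with DESeq2, -0.012 with only the 2 groups and -0.0045 when thinned. For miR-148a-5p with against without doxycycline it was -0.087 without TMM factors and -0.13 without the 2 shallowest libraries. Without doxycycline against knockout, miR-152-3p was at -0.019 without TMM factors and -0.19 with DESeq2, and without the 2 shallowest libraries miR-148a-5p was at 0.24 and miR-152-5p at 0.44. Without doxycycline against wild type, miR-148b-5p was at 0.11 when thinned and 0.090 without the 2 shallowest libraries. Without those libraries, arm ratios were -0.0058 for miR-148a with against without doxycycline and -3.13 for miR-152 with doxycycline against knockout. Counts were fewest for miR-152-3p, with 3 or fewer in each library without Ago2.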
